A study of Homo sapiens with 6 samples.

Results

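The 9 genes described here encode enzymes that make pyrimidine nucleotides and supply deoxynucleotides for DNA: CAD, UMPS, RRM1, RRM2, DUT, TYMS, DTYMK, TK1 and DCK. They were chosen by name from known enzymes of these pathways, with earlier results of these data known, so their counts beside all genes are a description. All 9 were found among the 58219 gene identifiers of each count file and passed the low-count filter that 14239 genes passed. The RNA came from SNU-387 cells and was sequenced from stranded poly(A) libraries. SNU-387 is an established line from a pleomorphic hepatocellular carcinoma labelled grade IV/V. The control group (shNT, 3 libraries) carried a stably expressed non-target short hairpin RNA, and the other group (shYES1, 3 libraries) stably expressed a hairpin against YES1, a SRC-family tyrosine kinase; no further treatment or time is labelled. Cells process a short hairpin RNA into a small interfering RNA, which lowers the transcripts it matches. The hairpin sequences are not analysed here, and nothing in the labels says that the libraries of a group are separate cultures, so p-values measure the spread between these libraries, which may be technical.

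Cells build pyrimidines from small molecules: CAD and UMPS act at the start and the end of the route to uridine monophosphate, with DHODH between them. Ribonucleotide reductase, made of RRM1 and RRM2, then turns ribonucleotides into deoxynucleotides, DUT provides dUMP and keeps dUTP out of DNA, TYMS methylates dUMP to dTMP, and DTYMK phosphorylates dTMP. TK1 and DCK recover deoxynucleosides from outside the route. RRM2, TYMS and TK1 are known for RNA levels that rise as cells enter S phase, and TYMS is the target of fluoropyrimidine drugs used against carcinomas.

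In shYES1 cells the members that make or recover deoxynucleotides had lower RNA levels, and those at both ends of the uridine route were near their control levels. TYMS fell 4.81-fold, DCK 2.33-fold and TK1 2.099-fold. RRM2 fell 1.82-fold, RRM1 1.75-fold, DTYMK 1.45-fold and DUT 1.19-fold. CAD and UMPS did not pass the test. Thus 7 of the 9 members fell and none rose, where 32.8% of all tested genes fell and 32.5% rose, 65.3% passing in either direction (edgeR quasi-likelihood test, Benjamini-Hochberg adjusted p under 0.05 over all genes). All 9 log2 fold changes were below 0, so no member was higher at an unadjusted p under 0.05 either, and none was called higher by DESeq2 or limma-voom. The median log2 fold change of the 9 was -0.80, against -0.0047 over all genes tested. The groups did not overlap for the 7 that fell, with all shYES1 libraries under all shNT libraries, as in 34% of tested genes. TYMS, DCK and TK1 fell at least 2-fold, as did 6.22% of all tested genes, and TYMS at least 4-fold, as did 0.794%.

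**Figure D1:**
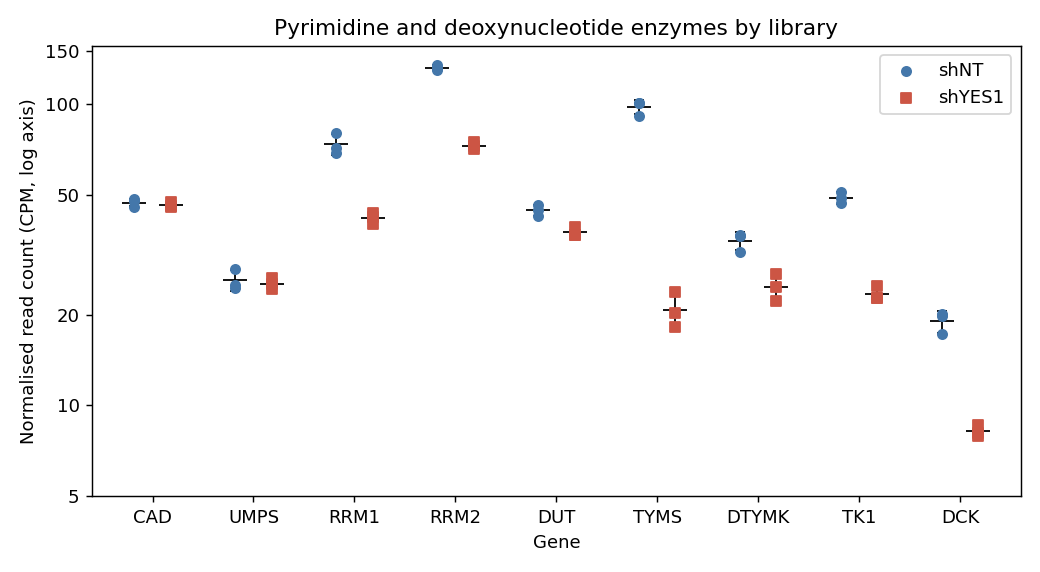
Normalised read counts (CPM, log axis) of the 9 enzymes in each of the 6 libraries, with circles for shNT, squares for shYES1 and black bars for the group mean ± SD (n = 3). The groups are separate for 7 genes, with TYMS between 91.5 and 100.6 CPM in shNT and between 18.2 and 23.8 CPM in shYES1, and they overlap for CAD and UMPS.

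Gene reads numbered 11290889 to 18944148 per library, and YES1 itself, which checks the labels, was at 177.7, 180.9 and 180.0 CPM in shNT 1 to 3 and at 42.9, 43.3 and 46.0 CPM in shYES1 1 to 3. CPM are reads divided by the library's gene reads and set to a fixed size, adjusted by TMM factors that balance libraries on their common genes. Of 12 hepatocyte genes looked at, 2 passed the low-count filter, SERPINA1 and TF, and TTR, APOA2, HNF4A and CYP3A4 had 0 reads in all 6 libraries. Of 5 epithelial genes, KRT8, KRT18 and EPCAM passed, EPCAM at a low 1.43 CPM in shNT and 0.979 CPM in shYES1. KRT19 and CDH1 did not pass. All 8 mesenchymal genes looked at, among them COL1A1 and CDH2, passed. Of 6 leukocyte genes, CD14 alone passed. Of 4 endothelial genes, 3 passed: PECAM1 (13.9 CPM in shNT, 11.2 in shYES1), CDH5 (11.1 and 10.6) and VWF (0.351 and 1.44). KDR did not.

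The stretch before the transcription start of 6 members is printed here, 4 that fell and 2 that did not. RRM1, DCK and DTYMK also fell and are not printed. The same stretch holds neither E2F nor CCAAT letters at DCK, nor at the starts of DUT, RRM2 and TK1 left out. The printed set therefore cannot show whether such letters go with the falls. The sequences are from RefSeq on GRCh38.p14, which had all 9 members, with 14 annotated starts. Each runs 5′ to 3′ on the gene's strand from 130 bases before a start through the first 20 transcribed bases. Capitals mark letters of an E2F motif (TTTCCCGC or TTTCGCGC or TTTGCCGC or TTTGGCGC, on either strand), of the CCAAT box bound by NF-Y (on either strand) and of the E box CACGTG. TYMS lies at chr18:657523-657672 (plus strand), DUT at chr15:48332067-48332216 (plus), RRM2 at chr2:10122609-10122758 (plus), TK1 at chr17:78187033-78187182 (minus), CAD at chr2:27217239-27217388 (plus) and UMPS at chr3:124730322-124730471 (plus). For DUT, RRM2 and TK1, which have several starts, the start with the most matches was shown, chosen after the matches were seen.
TYMS: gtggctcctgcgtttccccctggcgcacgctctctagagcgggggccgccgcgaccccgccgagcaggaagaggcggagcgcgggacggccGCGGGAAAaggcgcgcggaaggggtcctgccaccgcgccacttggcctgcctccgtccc
DUT: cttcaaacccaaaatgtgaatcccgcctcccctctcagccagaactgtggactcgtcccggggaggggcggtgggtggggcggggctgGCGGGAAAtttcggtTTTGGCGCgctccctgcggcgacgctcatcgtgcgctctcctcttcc
RRM2: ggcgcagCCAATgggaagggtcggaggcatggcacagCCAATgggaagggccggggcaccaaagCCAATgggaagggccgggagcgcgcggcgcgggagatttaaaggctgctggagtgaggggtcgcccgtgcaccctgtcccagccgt
TK1: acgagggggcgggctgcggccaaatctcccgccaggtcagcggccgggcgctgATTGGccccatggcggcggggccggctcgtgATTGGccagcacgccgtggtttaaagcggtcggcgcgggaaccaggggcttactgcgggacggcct
CAD: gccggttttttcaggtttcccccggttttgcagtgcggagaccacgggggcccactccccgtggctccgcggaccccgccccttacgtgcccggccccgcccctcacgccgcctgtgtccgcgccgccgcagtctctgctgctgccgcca
UMPS: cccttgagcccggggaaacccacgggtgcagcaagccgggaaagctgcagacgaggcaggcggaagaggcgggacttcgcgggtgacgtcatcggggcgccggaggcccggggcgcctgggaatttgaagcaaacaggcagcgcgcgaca

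The E2F letters occurred in 3.31% of the 35116 windows of 300 bases in the table (250 bases before to 50 after a start), and in 3 of the 14 windows of the members, 1 each for TYMS, DUT and DCK. In TYMS the single match lay 39 to 32 bases before the start. DUT had a match on each strand before its last start by coordinate, and the DCK match lay 22 to 29 bases after the start. CCAAT letters occurred in 34.6% of all windows and in 6 of the 14 windows of the members (42.9%), which belong to 5 genes. In RRM2 there were 3 matches on the gene's strand at 1 start, in TK1 a pair on the opposite strand, and in DTYMK a pair on the gene's strand. RRM1 had a single match near the start, and the CAD match was at the far end of its window, beyond the printed stretch. UMPS had neither E2F nor CCAAT letters. TTTGAA, the letters of a cell cycle element called CHR, were found in 15.2% of all windows and in 3 of the 14 windows of the members, with a pair of matches each for UMPS and DUT and 1 for RRM1. The GC box GGGCGG, bound by SP1, was in 10 of the 14 windows (71.4%), which belong to 7 genes, and in 45% of all windows. The E box was in 1 of the 14, that of DCK, and in 7.26% of all windows. Windows of 1 gene can overlap, so the 14 are not separate promoters. DUT, with a pair of E2F matches at its last start only, fell least of the 7, and TYMS, with 1, fell most. Gene counts pool all starts of a gene, and a link between the letters and the falls was not tested.

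**Figure D2:**
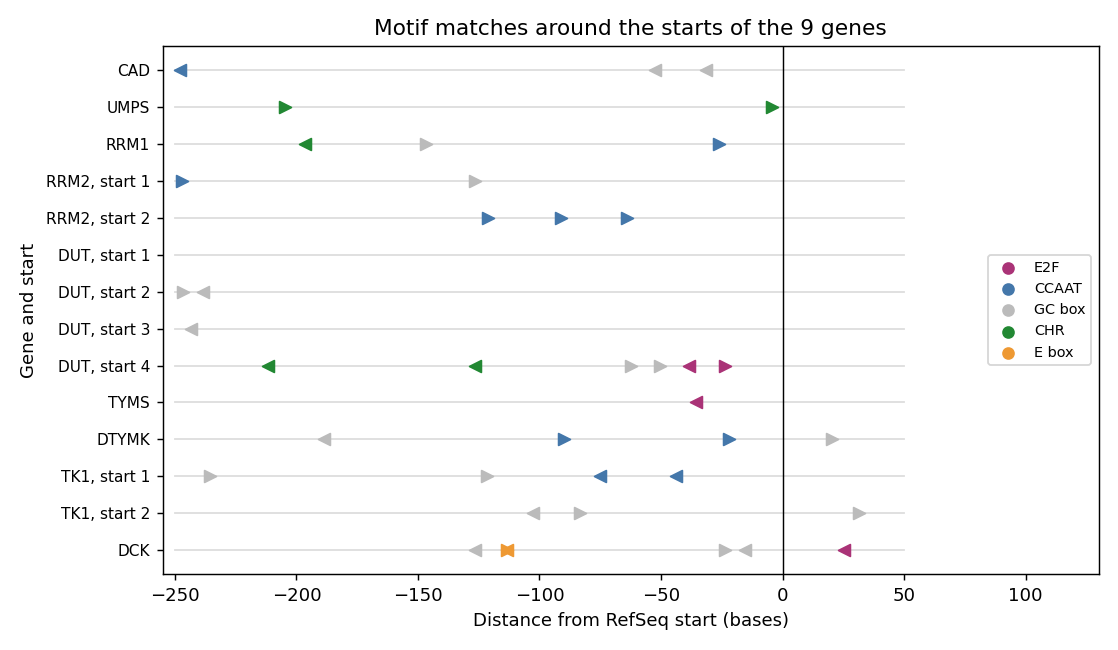
Matches to 5 motifs from 250 bases before to 50 after each of the 14 RefSeq starts of the 9 genes, with starts of a gene numbered by coordinate; the x axis is the distance from the start in bases, and triangles point right for the gene's strand and left for the opposite strand. E2F matches appear for TYMS, DCK and the last DUT start, and CCAAT matches for CAD, RRM1, RRM2, DTYMK and TK1.

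Both members of the uridine route kept RNA levels close to control. CAD (ENSG00000084774.13, chromosome 2, 27217390 to 27243943, plus strand), a large protein that carries the opening steps of the pathway, was at 47.5, 48.2 and 45.6 CPM in shNT and at 47.4, 45.8 and 45.7 CPM in shYES1. The groups overlapped, with means of 47.1 ± 1.37 and 46.3 ± 0.985 CPM (SD, n = 3). Its log2 fold change was -0.02, with a 95% interval of -0.12 to 0.07 (1.96 SE either way; edgeR adjusted p = 0.706). UMPS (ENSG00000114491.13, chromosome 3, 124730366 to 124749273, plus strand), which completes uridine monophosphate, was at 24.6, 28.4 and 25.2 CPM in shNT and 25.2, 24.3 and 26.6 CPM in shYES1. Again the libraries of both groups interleaved, and the log2 fold change was -0.03, with a 95% interval of -0.15 to 0.10 (edgeR adjusted p = 0.723). The sign of both differences turned under library-size scaling (0.07 for each on the log2 scale), and CAD passed as lower, at -0.12 (edgeR adjusted p = 0.0264), when scaling rested on genes whose 3′ UTR lacks the letters CCTTTC, an alternative chosen after seeing the data. DHODH, the mitochondrial enzyme between them, was at a low 4.52 ± 0.772 CPM in shNT and 3.54 ± 0.292 CPM in shYES1. It passed narrowly (log2 fold change -0.35, edgeR adjusted p = 0.0469) with overlapping groups. The DHODH call was lost without shNT replicate 1 (edgeR adjusted p = 0.131), shNT replicate 3 (0.221), shYES1 replicate 2 (0.117) or shYES1 replicate 3 (0.105), and with DESeq2 (0.172), limma-voom (0.0656), library-size scaling (0.151), no low-count filter (0.102) or unstranded counts (0.0654).

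Ribonucleotide reductase fell in both of its S phase subunits. RRM2 (ENSG00000171848.13, chromosome 2, 10120698 to 10131419, plus strand), the small subunit that holds the tyrosyl radical, was at 129.6, 135.1 and 131.4 CPM in shNT and at 74.7, 72.5 and 70.8 CPM in shYES1. No shYES1 library came near the controls, for a log2 fold change of -0.86 with SE 0.0357 (edgeR adjusted p = 8.87e-26). RRM1 (ENSG00000167325.14, chromosome 11, 4094707 to 4138876, plus strand), the large catalytic subunit, was at 68.8, 80.1 and 71.6 CPM in shNT and 43.4, 40.0 and 42.3 CPM in shYES1. The groups were separate although the shNT libraries spread more (73.5 ± 5.89 against 41.9 ± 1.72 CPM), for a log2 fold change of -0.80 with SE 0.0491 (edgeR adjusted p = 2.17e-19). RRM2B, the alternative small subunit induced by p53, moved the other way, from 29.8, 31.6 and 27.5 CPM in shNT to 37.6, 34.7 and 38.4 CPM in shYES1. All 3 shYES1 libraries were above all 3 shNT libraries, and the rise was 1.26-fold (log2 fold change 0.33, edgeR adjusted p = 2.69e-06). Exons of RRM2 overlap 1077 bases of another annotated gene on the same strand, where reads can be lost as ambiguous.

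The thymidylate steps fell unequally. TYMS (ENSG00000176890.15, chromosome 18, 657604 to 673578, plus strand) had 1133, 1329 and 1588 reads in shNT 1 to 3 and 332, 278 and 357 reads in shYES1 1 to 3. These correspond to 91.5, 100.6 and 100.6 CPM in shNT and to 20.2, 23.8 and 18.2 CPM in shYES1, so the highest shYES1 library was far below the lowest control. This is a log2 fold change of -2.27 with SE 0.0572 (edgeR adjusted p = 5.46e-31), which ranked 67 among the 14239 tested genes ordered from the largest fall. TYMS lies near YES1, the hairpin target, which is at 721588 to 812546 of chromosome 18 (minus strand) and fell 4.06-fold. Whether that location bears on the fall of TYMS was not tested. DTYMK (ENSG00000168393.12, chromosome 2, 241675742 to 241686991, minus strand), the kinase after TYMS, was at 32.3, 36.9 and 36.4 CPM in shNT and 24.7, 27.2 and 22.3 CPM in shYES1. Its groups were separate but closer than those of TYMS (log2 fold change -0.54, SE 0.0643, edgeR adjusted p = 5.42e-10). DUT (ENSG00000128951.13, chromosome 15, 48331011 to 48343373, plus strand), the dUTPase before TYMS, was at 44.5, 42.5 and 46.3 CPM in shNT and 36.7, 39.2 and 36.7 CPM in shYES1. This was the smallest of the 7 falls (log2 fold change -0.25, SE 0.0516, edgeR adjusted p = 3.36e-05); the gene makes a nuclear and a mitochondrial enzyme, which gene counts do not separate.

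The genes around the TYMS reaction went both ways. DCTD, which makes dUMP by deaminating dCMP, was at 62.5, 66.1 and 64.1 CPM in shNT and at 18.9, 17.9 and 19.1 CPM in shYES1, a 3.43-fold fall (log2 fold change -1.78, edgeR adjusted p = 6.27e-31). SHMT2, a mitochondrial source of one-carbon units, went from 196 ± 6.82 down to 69.6 ± 1.68 CPM (-1.50). The cytosolic enzyme SHMT1 rose from 30.9 ± 0.220 to 36.4 ± 2.55 CPM (0.22, edgeR adjusted p = 0.000643), a call lost under the same alternative scaling (0.0520). Over the 8 genes listed for the thymidylate cycle and dUMP supply, 5 fell and 1 rose, and MTHFD1 and DCTPP1 did not pass (MTHFD1 passed as lower with unstranded counts, edgeR adjusted p = 0.038, and with the scaling on genes lacking CCTTTC, 0.00429; median log2 fold change -0.39). TYMS, DUT and DTYMK are themselves in that count.

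Both salvage kinases fell at least 2-fold. TK1 (ENSG00000167900.11, chromosome 17, 78174075 to 78187233, minus strand), the cytosolic thymidine kinase, was at 46.8, 51.2 and 48.8 CPM in shNT and at 22.7, 25.0 and 22.8 CPM in shYES1. The values fell into tight and separate groups (log2 fold change -1.07, SE 0.0562, edgeR adjusted p = 8.54e-22). DCK (ENSG00000156136.9, chromosome 4, 70992538 to 71030914, plus strand), which phosphorylates deoxycytidine and activates drugs such as gemcitabine and cytarabine, was at 17.2, 19.8 and 20.1 CPM in shNT and 7.91, 8.64 and 8.12 CPM in shYES1. With 101 to 317 reads per library it was the member with the fewest reads, and its groups were still separate (log2 fold change -1.22, SE 0.0886, edgeR adjusted p = 9.58e-17). Exons of DCK overlap 199 bases of MOB1B on the same strand. The mitochondrial counterparts fell less: TK2 went from 37.3 ± 0.950 to 21.8 ± 0.456 CPM (log2 fold change -0.77) and DGUOK from 42.2 ± 2.73 to 30.7 ± 1.59 CPM (-0.46). Of the 3 uridine and cytidine kinase genes, UCKL1 rose from 36.1 ± 0.321 to 45.5 ± 1.30 CPM (0.33), and UCK1 (0.07) and UCK2 (0.07) did not pass, so that 1 of the 7 salvage kinase genes rose, against 3 with library-size scaling.

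Ratios of reads per kilobase of annotated exon within 1 library need no scaling between libraries, and 7 were compared with an exact two-sided permutation test of log2 ratios, which with 3 libraries against 3 cannot go below p = 0.1 (0.14 after Benjamini-Hochberg adjustment over the 7). The ratio of RRM2 to RRM1 was 1.48, 1.32 and 1.44 in shNT and 1.35, 1.42 and 1.31 in shYES1, so the subunit RNAs kept overlapping proportions (exact permutation p = 0.4). RRM2 to RRM2B went from 4.53, 4.45 and 4.98 to 2.07, 2.17 and 1.92, with no overlap (exact permutation p = 0.1). TYMS to DUT was above 3 in every shNT library and below 1 in every shYES1 library, with means of 3.27 ± 0.235 and 0.820 ± 0.0822 (exact permutation p = 0.1). TK1 to TK2 went from 5.05 ± 0.132 to 4.15 ± 0.317, and DCK to DGUOK from 0.204 ± 0.0179 to 0.121 ± 0.00708, each without overlap and each at the smallest p possible. TK1 to DCK was slightly higher in shYES1 (4.95 ± 0.0776 against 4.47 ± 0.251), also without overlap. CAD to UMPS was 1.63 ± 0.106 in shNT and 1.65 ± 0.0850 in shYES1, with overlapping groups (exact permutation p = 0.9). Of the 7 pairs, 5 therefore had separate groups, and none could reach an adjusted p under 0.05 in this design.

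**Figure D3:**
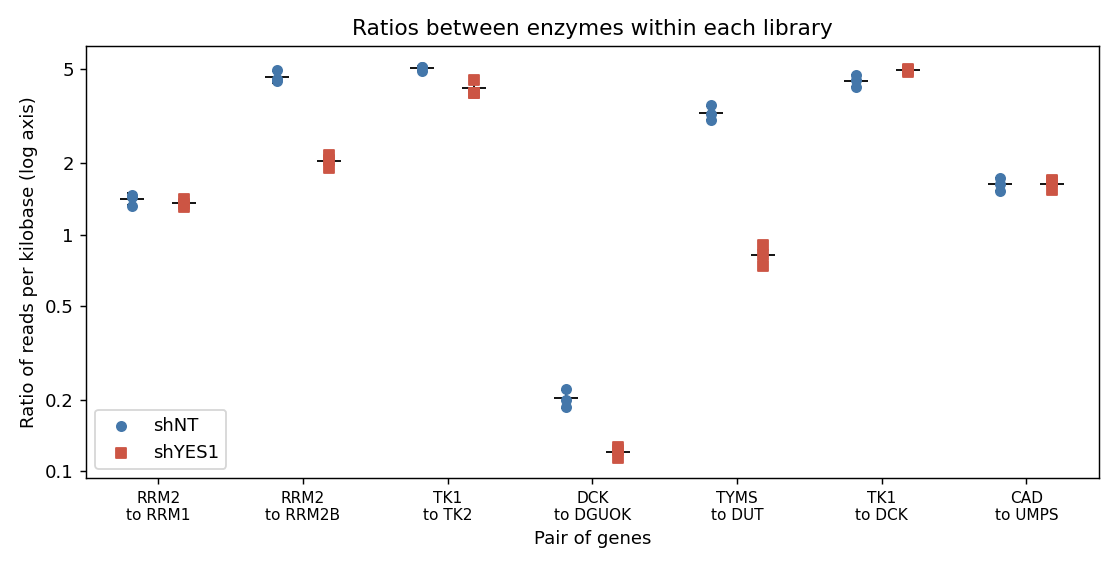
Ratios of reads per kilobase of exon between 7 pairs of genes in each library (log axis), with circles for shNT, squares for shYES1 and bars for the mean ± SD (n = 3). RRM2 to RRM1 and CAD to UMPS overlap between groups, while TYMS to DUT goes from 3.27 to 0.820 and RRM2 to RRM2B from 4.65 to 2.06.

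Per kilobase of exon, TYMS had the highest level of the 9 in shNT, at 39.5 ± 2.12 CPM per kb. TK1 (26.3 ± 1.18) and RRM2 (24.8 ± 0.526) came next and overlapped each other, followed by RRM1 (17.6 ± 1.41), DTYMK (14.4 ± 1.02) and DUT (12.1 ± 0.516). DCK (5.89 ± 0.487) and CAD (5.59 ± 0.163) overlapped, and UMPS was lowest (3.44 ± 0.271). In shYES1 the order began with RRM2 (13.7 ± 0.366) and TK1 (12.6 ± 0.693), which overlapped. DUT, DTYMK and RRM1 lay together between 9.09 and 11.1 CPM per kb, and TYMS was sixth at 8.40 ± 1.14 CPM per kb, overlapping DTYMK and RRM1. CAD (5.50 ± 0.117), UMPS (3.35 ± 0.151) and DCK (2.55 ± 0.116) closed the order without overlap. The levels thus spanned a narrower range in shYES1, and TYMS went from first to sixth.

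Genes that mark dividing cells fell with the members. All 14 S phase markers looked at fell (median log2 fold change -1.31), and their summed level was 595.2 to 626.8 CPM in shNT and 324.6 to 330.5 CPM in shYES1. CCNE2, a cyclin of S phase entry, fell most of these, from 5.77 ± 0.763 to 1.35 ± 0.502 CPM (-2.02). All 10 G2 and mitosis markers fell as well (median -0.76), with summed levels of 1500 to 1516 and of 812.1 to 829.1 CPM, and TOP2A, which untangles DNA, fell most (-1.37). In RNA from whole cultures, fewer cells in S phase and less RNA per cell cannot be told apart, and the part of this shift in the falls of the enzymes was not tested. E2F genes, whose products drive or restrain S phase transcription, went both ways: 6 of 8 fell, E2F8 most (8.77 ± 0.249 to 2.86 ± 0.792 CPM, -1.67), and E2F7 (79.3 ± 1.63 to 122 ± 3.55 CPM, 0.62) and E2F6 (0.38) rose.

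Set against the S phase markers of the same library, TYMS was lower in shYES1 and DUT, DTYMK, CAD and UMPS were higher, whether the markers were summed or each weighed the same. As a share of the summed markers, TYMS went from 0.160 ± 0.00594 in shNT to 0.0635 ± 0.00878 in shYES1, and CAD from 0.0773 ± 0.00242 to 0.142 ± 0.00155. Relative to the geometric mean of the 14 markers, TYMS went from 3.51 ± 0.135 to 1.71 ± 0.293 and CAD from 1.69 ± 0.0721 to 3.80 ± 0.113. Where RRM1, TK1 and DCK stood, and how far RRM2 did, turned on which level was used, since abundant markers that fell less carry the sum, which changed by -0.90 on the log2 scale against -1.19 for the geometric mean. TK1 lay below its control share of the sum (0.0802 ± 0.00152 and 0.0719 ± 0.00439) but overlapped control relative to the geometric mean (1.76 ± 0.0672 and 1.93 ± 0.189). DCK was likewise below by the sum (0.0312 ± 0.00210 and 0.0252 ± 0.00134) and overlapping by the geometric mean (0.683 ± 0.0455 and 0.677 ± 0.0606). RRM1 overlapped control by the sum (0.121 ± 0.00649 and 0.128 ± 0.00436) and was above it by the geometric mean (2.64 ± 0.201 and 3.44 ± 0.0250). RRM2 was above control by both, barely by the sum (0.217 ± 0.00112 and 0.222 ± 0.00402) and further by the geometric mean (4.75 ± 0.101 and 5.97 ± 0.226). A member that fell less than the markers comes out higher in such a ratio, so the ratios restate the fold changes given above. Both sets of ratios were computed after the values were seen and are given with no test.

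**Figure D4:**
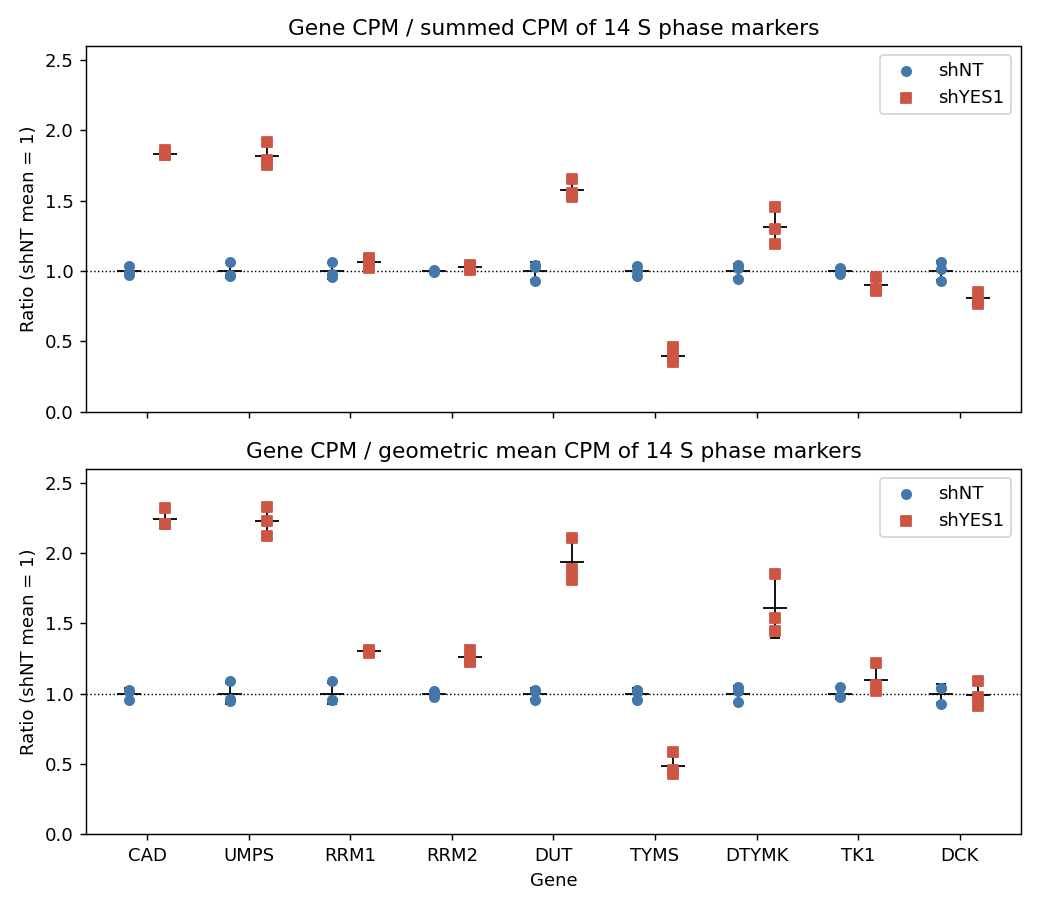
CPM of each enzyme divided by the summed CPM (upper panel) or the geometric mean CPM (lower panel) of 14 S phase markers in the same library, scaled so that the shNT mean is 1 (circles shNT, squares shYES1, bars mean ± SD, n = 3). TYMS lies below 1 and DUT, DTYMK, CAD and UMPS above it in both panels, while RRM1, TK1 and DCK stand differently to their controls in each.

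Other nucleotide genes went both ways. Of 76 genes in 8 lists of nucleotide metabolism, 70 were tested. Among the 61 that are not members, 24 fell, 18 rose and 19 did not pass, with a median log2 fold change of 0.03. These are 39.3% lower and 29.5% higher, beside 32.8% and 32.5% of all tested genes. Of the 10 genes that phosphorylate UMP or CMP, make CTP or interconvert triphosphates, 3 fell and 3 rose. NME4, a mitochondrial nucleoside diphosphate kinase, fell from 41.9 ± 1.42 to 12.0 ± 1.26 CPM (-1.83), CMPK1, the UMP and CMP kinase, from 224 ± 4.64 to 136 ± 3.93 CPM (-0.71), and CTPS2 from 18.3 ± 0.771 to 12.6 ± 1.66 CPM (-0.55). The other CTP synthase, CTPS1, rose from 24.9 ± 0.494 to 33.8 ± 0.954 CPM (0.44), and NME3 (0.26) and NME7 (0.23) rose slightly.

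**Figure D5:**
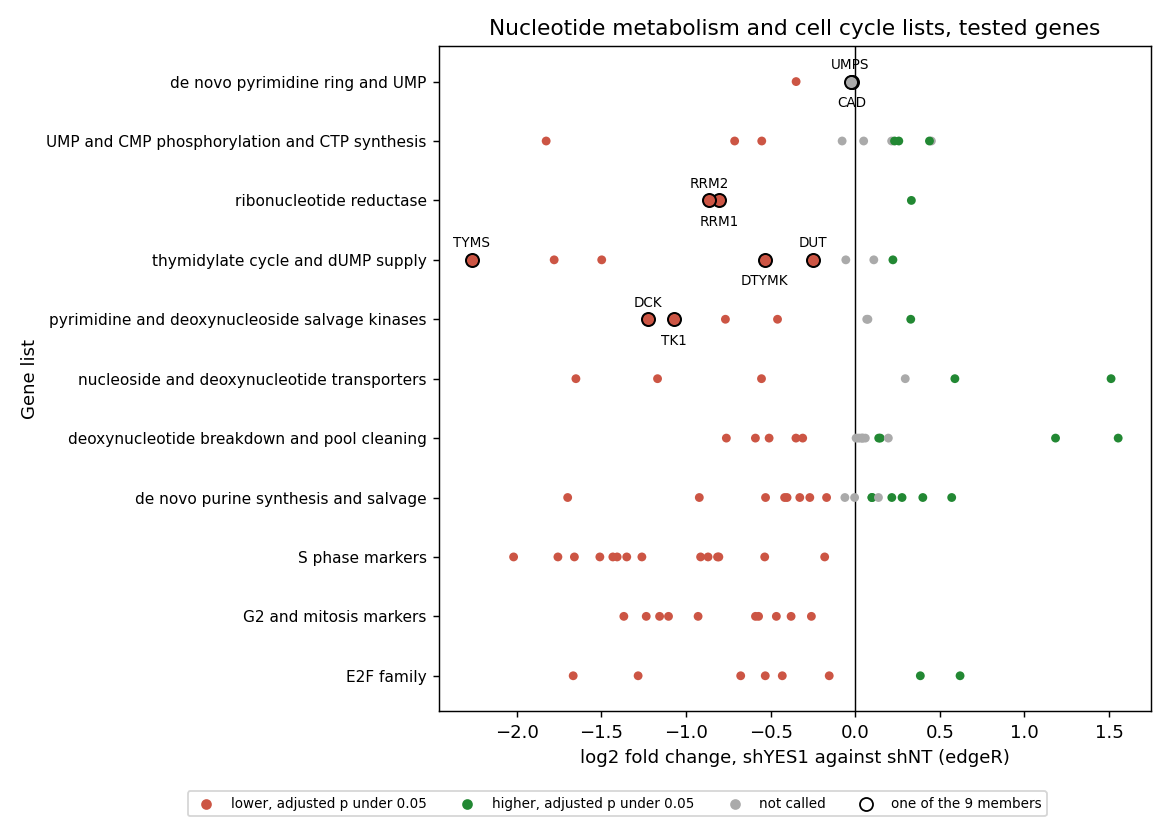
Log2 fold change (shYES1 against shNT, edgeR) of every tested gene in 8 lists of nucleotide metabolism and 3 of the cell cycle, coloured by whether the adjusted p was under 0.05; outlined and named points are the 9 members. Members lie from -2.27 (TYMS) to -0.02 (CAD), the S phase and mitosis markers are all lower, and purine and breakdown genes lie on both sides of 0.

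Of 9 transporter genes 6 were tested, and 3 fell and 2 rose, beside 32.8% and 32.5% of all tested genes. SLC29A2 (1.39 ± 0.187 to 0.458 ± 0.124 CPM, lower) and SLC29A3 (0.690 ± 0.243 to 1.87 ± 0.591 CPM, higher) were near the filter. SLC29A1, the equilibrative nucleoside transporter that brings nucleosides and their drug analogs into cells, went from 62.7, 59.6 and 58.9 CPM in shNT to 26.7, 28.7 and 25.7 CPM in shYES1, a 2.25-fold fall (log2 fold change -1.17, edgeR adjusted p = 1.76e-24). The mitochondrial pyrimidine carriers parted, with SLC25A36 lower (122 ± 3.65 to 83.0 ± 3.38 CPM, -0.55) and SLC25A33 higher (9.91 ± 1.15 to 14.8 ± 0.296 CPM, 0.59). The concentrative transporter genes SLC28A1 and SLC28A2 had 0 reads in every library.

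Genes that break down or clean nucleotide pools gave 5 lower and 4 higher of 16 tested, beside 32.8% and 32.5% of all tested genes. SAMHD1, which degrades deoxynucleoside triphosphates, fell from 126 ± 3.37 to 74.2 ± 0.965 CPM (-0.76), DPYD, which starts pyrimidine breakdown and clears fluorouracil, from 214 ± 6.36 to 150.2 ± 2.96 CPM (-0.51), and NUDT18 from 7.39 ± 0.655 to 4.98 ± 0.507 CPM (-0.59). ADA, the adenosine and deoxyadenosine deaminase, rose from 3.22 ± 0.603 to 9.56 ± 0.320 CPM (1.55), and UPB1, at under 2 CPM in every library, was also called higher (1.18, edgeR adjusted p = 0.00817). UPB1 lost its call with DESeq2 (0.0554), without shNT replicate 1 (edgeR adjusted p = 0.0709) and without shNT replicate 3 (0.0565). The nucleotidase genes NT5C3A (0.15, edgeR adjusted p = 0.0302) and NT5C3B (0.14, 0.0188) passed narrowly. NT5C3A lost its call with any library but shNT replicate 2 left out (edgeR adjusted p of 0.0503 to 0.192), and NT5C3B without shYES1 replicate 1 (0.109). Both lost it with DESeq2 (0.118 and 0.0858) and with the scaling on genes lacking CCTTTC (0.486 and 0.516). The number of rises was 2 without shNT replicate 1, without shNT replicate 3 or without shYES1 replicate 1, 9 with library-size scaling, 1 with DESeq2 and 2 with the scaling on genes lacking CCTTTC. Thymidine phosphorylase TYMP (0.03), uridine phosphorylase UPP1 (0.04) and cytidine deaminase CDA (0.06) did not pass, though TYMP (edgeR adjusted p = 0.0063) and UPP1 (0.00636) did, as higher, with library-size scaling.

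Purine synthesis and salvage split, with 8 lower, 6 higher and 3 not called of 17, beside 32.8% lower and 32.5% higher of all tested genes. PRPS2, which makes the ribose donor for purines and pyrimidines, fell from 48.0 ± 3.05 to 14.7 ± 0.793 CPM (-1.70), and its paralog PRPS1 from 27.4 ± 1.17 to 19.0 ± 0.566 CPM (-0.53). PPAT, the first committed enzyme of purine synthesis, rose from 13.4 ± 0.854 to 20.04 ± 0.878 CPM (0.57), and ADSS2 (0.40) and APRT (0.28) rose. ADSL, at 6.02 ± 0.959 and 4.55 ± 0.584 CPM, passed as lower (-0.42, edgeR adjusted p = 0.00885), but not without shNT replicate 2 (0.104) or shYES1 replicate 3 (0.105), nor with DESeq2 (0.0636).

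The genes whose profile over the 6 libraries lay closest to the mean profile of the 9 members (Euclidean distance of centred log2 CPM among 10117 protein-coding genes of at least 5 CPM) were PRDX6, a peroxidase (distance 0.0389), SAMHD1 (0.0541), HMMR, a spindle and hyaluronan-binding protein (0.0573), TNFRSF10B (0.0748) and TMSB4X (0.0758). PRDX6 went from 218 ± 6.77 to 128 ± 3.76 CPM. Nearest to TYMS alone were LPGAT1 (0.193), CMTM6 (0.256) and RNF135 (0.266), with LPGAT1 going from 94.4 ± 1.86 to 20.8 ± 1.59 CPM. With 2 groups of libraries such likeness mostly reflects a similar fold change.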

How the data were processed

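For each library the authors deposited raw gene-level read counts, unnormalized, in unstranded, forward-strand and reverse-strand columns. STAR 2.5.1b, Trimmomatic 0.35, CASAVA 1.8.2 and build GRCh38 are listed in the submitters' processing notes; the annotation release was not stated there. Reverse-strand counts were used (93.5% to 94.0% of stranded gene reads). The 4 entries that name no gene, 19.8% to 20.3% of reads, were left out; multimapping reads count for no gene, so genes with near-identical copies can lose reads. Of 58219 identifiers 57437 were matched to symbols; coordinates, exon lengths and overlaps are from GENCODE 29 on GRCh38.

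In R 4.3.3, edgeR 4.0.16 used filterByExpr (minimum count 10, minimum total 15), TMM scaling and the robust quasi-likelihood test of shYES1 (n = 3) against shNT (n = 3), with Benjamini-Hochberg adjustment over 14239 genes and a threshold of 0.05; the common coefficient of variation was 2.10%. The SE of a log2 fold change was approximated as its absolute value over the root of F. The step was tested on simulated data. The results were recomputed with DESeq2 1.42.0, limma-voom (limma 3.58.1), RLE and library-size scaling, 2 other filters, unstranded counts, the replicate block and each library left out. Scaling on genes that lack CCTTTC in their 3′ UTR was added after seeing the data, as was the geometric mean of S phase markers beside their sum. Pairs of libraries of a group differed by more than sampling noise (chi-square per degree of freedom 1.15 to 2.19).

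The members and lists were chosen with earlier results of these data known. Named were the 9 members, 6 partner genes (RRM2B, TK2, DGUOK, DHODH, DCTD and SAMHD1) and YES1, up to 3 called rises and 3 falls of at least 5 CPM per nucleotide list, the largest called changes of the marker lists, and the 5 and 3 nearest profiles. Further genes in the text (such as MTHFD1, UCK1, TYMP and E2F6) complete a list's count and were named after their values were seen. Some items are not reported here, and the lists and ratios are given without them.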

Additional observations from a re-analysis of the deposited data

How the results depend on the processing

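The count of 7 members lower held under 14 of the 15 alternatives run and was 8, with CAD, when scaling rested on genes lacking CCTTTC; the count of members higher was 0 in all 15. The number of genes called over the whole table ranged from 7953 (DESeq2) to 9561 (library-size scaling), against 9299. TYMS ranged from -2.36 to -2.07 on the log2 scale over these settings (least with unstranded counts, where reads shared with ENOSF1 on the other strand are dropped), TK1 from -1.17 to -0.97, DCK from -1.32 to -1.13, RRM2 from -0.96 to -0.77, RRM1 from -0.90 to -0.71, DTYMK from -0.63 to -0.44 and DUT from -0.35 to -0.16. Of the named genes recomputed singly, CAD, MTHFD1, TYMP, UPP1, UCK1 and UCK2 gained a call in some settings. DHODH, ADSL, NT5C3A, NT5C3B, UPB1 and SHMT1 lost theirs in some, as given beside these genes. Other list genes were followed only as counts per list. S phase markers called lower numbered 13, not 14, with library-size scaling. E2F genes called lower numbered 4, not 6, with DESeq2 or library-size scaling, and 5 with unstranded counts. Purine genes called higher numbered 4, not 6, with DESeq2, with scaling on genes lacking CCTTTC or without shYES1 replicate 3. They numbered 8 with library-size scaling, 7 without shYES1 replicate 2 and 5 when any other library was left out. The count of purine genes called lower ranged from 7 to 10, against 8. Library-size scaling called 5799 genes higher and 3762 lower, and scaling on genes lacking CCTTTC 3497 and 5767, against 4623 and 4676. With the replicate block, 9297 genes were called in either direction and 7 members were called lower; same-numbered libraries deviated together little (correlations of 0.012, 0.025 and 0.012), and not every library correlated best with its own number, so the numbers were not taken as pairs. With unstranded counts the log2 change of TYMS to DUT was -1.77 in place of -1.999. With 3 libraries a group, no within-library ratio could reach an adjusted p under 0.05.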

Other observations

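Exons of TYMS overlap those of ENOSF1, a gene on the opposite strand, by 967 bases, and ENOSF1 fell as well, from 101 ± 2.93 to 51.7 ± 2.71 CPM (log2 fold change -0.97, edgeR adjusted p = 2.67e-25), a gene named here after its values were seen. The forward-strand column, which the comparisons did not use, held 73 to 202 reads per library at TYMS, 13.04 ± 0.922 CPM in shNT and 6.13 ± 0.221 CPM in shYES1. At the other 8 members it held 0 to 18 reads per library, with the shYES1 libraries below the shNT libraries for RRM2, TK1 and DCK and overlapping groups for RRM1, DUT, DTYMK, CAD and UMPS. Such counts are near the floor: DCK had 4, 4 and 3 reads in shNT and 1, 0 and 3 in shYES1. The share of all genes with separate groups in this column was not computed.

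The letters CCTTTC occur in the annotated 3′ UTR of 53.1% of 11974 tested genes that have one of at least 50 bases. They were looked at with earlier results of these data known, so the split is a description: 42.4% of genes with the letters were called lower against 25.4% of those without, and the medians were -0.07 and 0.10 on the log2 scale. A gene was taken to hold the letters if any of its annotated 3′ UTRs did. The length of the 3′ UTR was not matched between these sets, and other letters were not compared. Among the 9 members, DCK, DUT and UMPS hold the letters, and TYMS, RRM1, RRM2, TK1, DTYMK and CAD do not. Of the partner genes, DCTD, SAMHD1, TK2, DGUOK and DHODH hold them and RRM2B does not.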
